A study of Mus musculus with 38 samples.

Results

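Expression was examined for 33 genes that repair broken, crosslinked or mispaired DNA or signal its presence. They comprised 11 genes of homologous recombination, 2 RecQ helicases, 8 genes of the Fanconi anaemia pathway, 5 of end joining, 3 of mismatch repair and 4 checkpoint kinases. The genes were listed by name for these roles. The rule that lists them uses no measured value, but the list was chosen with earlier results of these data known. A probe was found for 32 of the 33, out of 20018 genes with a symbol on the array, whereas the remaining one matched no probe accession and is not analysed here. Where a gene had several probes, the brightest one stood for it.

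The animals were male MutaMouse of about 10 weeks of age, a transgenic strain that carries a bacterial reporter for mutations, and RNA was taken from their lung and forestomach. Mice were gavaged daily for 28 days with olive oil alone (D0) or with dibenz(a,h)anthracene (DBahA), a polycyclic aromatic hydrocarbon, in olive oil. The daily dose per kg of body weight was 6.25 mg in group D1, 12.5 mg in D2 and 25 mg in D3, and tissues were taken 72 h after the last gavage. From D0 to D3 the groups held 5, 5, 4 and 5 mice for lung and 5, 5, 4 and 4 for forestomach, and the 2 forestomach arrays that carry the number of D3 mouse 18 were averaged to 1 replicate. No forestomach array labelled mouse 20 was analysed here, and whether both arrays came from mouse 18 was not tested. Each value is a log2 ratio of the tissue signal (Cy5) to that of a universal mouse reference RNA pooled from cell lines (Cy3), so a negative value is a signal below that of the reference and values of different genes are not comparable as amounts. RNA was drawn from random sections of whole tissue, in which fewer cells of a type and less RNA per cell cannot be told apart.

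DBahA is oxidised in tissues to reactive metabolites that bind DNA bases. Such bulky adducts are mainly removed by nucleotide excision repair, but a replication fork that meets one can stall or break. The Fanconi anaemia proteins mark and unhook crosslinked or stalled sites, homologous recombination copies the lost sequence from the sister strand with the help of RecQ helicases, end joining reseals broken ends without a template, and mismatch repair corrects mispaired bases. The kinases Atm, Atr, Chek1 and Chek2 relay the damage signal to the cell cycle. Many of these genes are made mostly in cells that copy their DNA, and their proteins are to a large part controlled after translation.

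None of the 32 measured members was a differentially expressed gene (DEG) at any dose in either tissue, where a DEG has a Benjamini-Hochberg adjusted p of at most 0.05 over all 55681 probes and a fold change of at least 1.5 (limma). In lung, 0 of 32 members were called at D1, D2 and D3, against 0.14%, 0.264% and 0.639% of all probes, and 1, 4 and 6 members had an unadjusted p of at most 0.05, against 6.53%, 8.06% and 11.3% of all probes. In forestomach no probe at all was called at any dose (0%), and the count of members with an unadjusted p of at most 0.05 was 1 at D3, against 3.57% of all probes. Between the untreated tissues 5 of 32 members were called, against 16.2% of all probes, so the share with both directions pooled was close to that of all probes. All 5 were lower in lung, where 7.6% of all probes were called lower and 8.62% higher. This count is small and fell to 0 under median centring in place of loess. Rad54l, among the 5, lost its call in 5 of 10 fits without 1 mouse.

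In lung at D3, 25 of the 32 members were higher than at D0 and 7 lower, with a median log2 fold change of 0.08, against a median of 0.00 and 49.9% higher over all probes. Median centring in place of loess gave 31 higher members, with a median of 0.35, where probes well above background on every array had a median of 0.42. The background-subtracted ratio of Feature Extraction gave 27 higher members, with a median of 0.19, where those probes had a median of -0.01. With loess and no background subtraction, the changes ranged from -0.23 (Fancb) to 0.39 (Fanca). The 95% intervals of 31 members lay inside a 1.5-fold change in either direction, and only that of Brca2 reached past it, to 0.63. At D1 and D2 the intervals of all 32 members lay inside 1.5-fold. Only 21 members were well above background on every lung array, and 2 (Brca1 and Fancd2) were so on none. Near background such an interval bounds the measured ratio and not the change in RNA. The lung comparisons share the D0 mice, so the doses are not independent of each other.

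**Figure D1:**
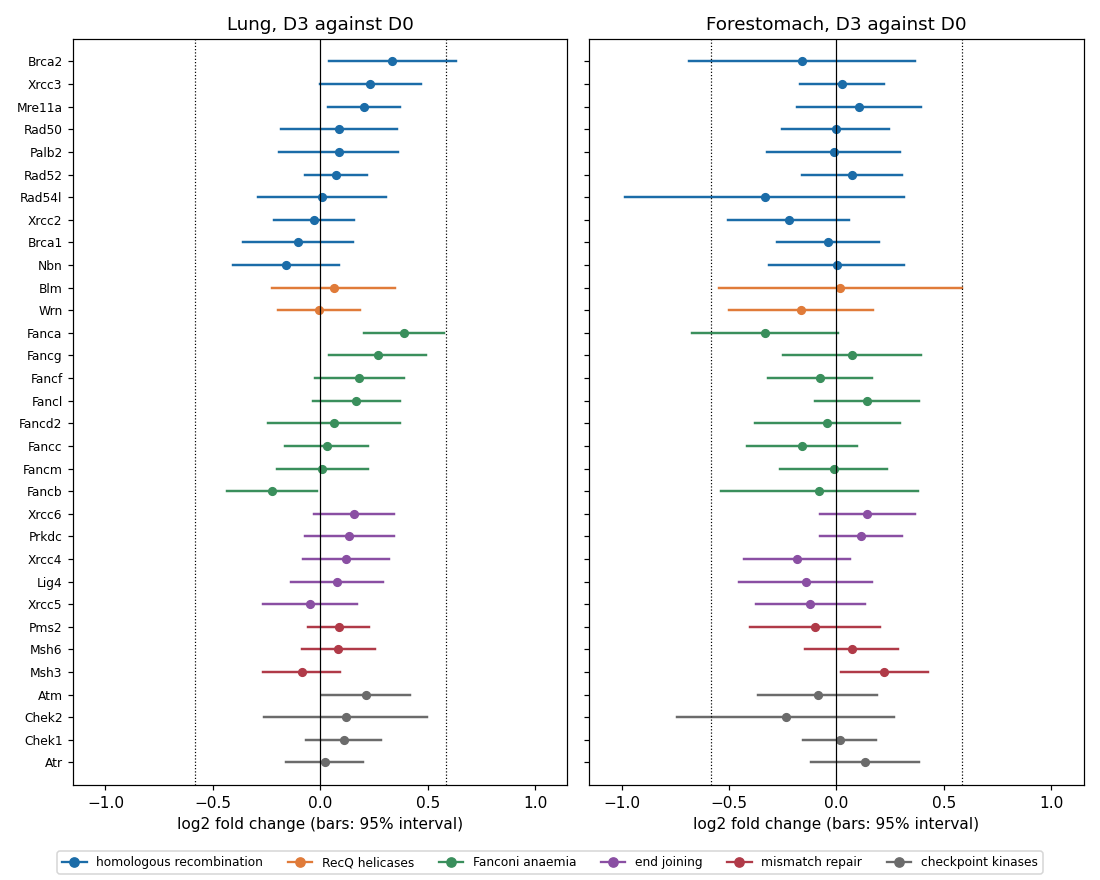
Log2 fold change at D3 against D0 of the 32 measured members in lung (left, 5 against 5 mice) and forestomach (right, 4 against 5 mice). Points are limma estimates, bars their 95% intervals, colours the role of the gene, and dotted lines mark a 1.5-fold change. In lung the points run from -0.23 for Fancb to 0.39 for Fanca, and in forestomach they run from -0.33 to 0.22, with the lowest bound at -0.98 for Rad54l.

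The promoters of 3 members named in the results are printed: Fanca, the member that passed the adjusted p in lung, and Xrcc6 and Mre11a, the members with the smallest p between the tissues. Each line gives the 250 bases before the start of the gene, 5′ to 3′ on the strand of the gene, from RefSeq on GRCm38.p6. Capitals mark matches on either strand to a CCAAT box, to a GC box spelled GGGCGG, to a cell cycle homology region spelled TTTGAA, to an E2F site spelled TTTNGCGC and to the p53 motif, searched as 1 copy of its 10-base core, of which only Fanca has one, between its GC box and its CCAAT boxes. No match overlaps one of another motif in these windows.
Fanca, chr8:123318577-123318826, minus strand: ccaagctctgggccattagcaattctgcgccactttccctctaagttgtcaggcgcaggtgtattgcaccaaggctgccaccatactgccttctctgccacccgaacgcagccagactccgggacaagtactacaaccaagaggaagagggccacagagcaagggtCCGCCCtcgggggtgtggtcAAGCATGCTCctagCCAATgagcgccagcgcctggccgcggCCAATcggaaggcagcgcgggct
Mre11a, chr9:14784404-14784653, plus strand: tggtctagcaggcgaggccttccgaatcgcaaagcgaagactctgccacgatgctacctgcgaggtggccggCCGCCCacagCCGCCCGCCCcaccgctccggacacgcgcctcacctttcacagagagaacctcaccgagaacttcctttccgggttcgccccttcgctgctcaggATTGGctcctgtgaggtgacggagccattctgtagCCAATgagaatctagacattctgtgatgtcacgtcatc
Xrcc6, chr15:82016119-82016368, plus strand: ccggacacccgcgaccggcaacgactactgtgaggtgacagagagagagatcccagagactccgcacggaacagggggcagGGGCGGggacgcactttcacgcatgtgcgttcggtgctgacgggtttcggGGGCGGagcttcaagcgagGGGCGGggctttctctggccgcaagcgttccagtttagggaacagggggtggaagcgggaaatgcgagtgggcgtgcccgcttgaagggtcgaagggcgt

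Windows were found for 27 of the 33 members, 3 of which had more than 1, which gave 30 windows. The windows of Rad54l are almost identical and each was counted, and the member without a probe is included. CCAAT was present in 16 of these 30 (53.3%), against 33.9% of 32841 windows of all genes, and GGGCGG in 20 (66.7%), against 32.7%. The p53 motif was present in 2 (6.67%), those of Fanca and Fancg, against 7.13%. TTTNGCGC was found in the window of Msh3 alone, against 1.13% of all windows, and TTTGAA in none, against 16.0%. Only these spellings were searched, so an E2F site spelled otherwise was not counted or marked. These are counts of letters in a short window and say nothing of binding.

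Among the genes of the Fanconi anaemia pathway, 7 of 8 had a positive estimate in lung at D3 (median 0.11). Fanca, a scaffold subunit of the Fanconi core ubiquitin ligase complex, had the largest change of all members. Its log2 ratios in lung were -2.44, -2.15, -2.06, -2.15 and -2.16 in the 5 D0 mice, and -1.59, -1.85, -1.80, -1.72 and -2.05 in the 5 D3 mice. All 5 D3 mice lay above the highest D0 mouse, so the groups did not overlap, which held for 1 of 32 members and for 3.12% of all probes, about the same share. The log2 fold change was 0.39 ± 0.09 (SE), a fold of 1.31, with an adjusted p of 0.0298. Fanca thus passed the adjusted p, as 1.33% of all probes did, but not the fold threshold.

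At the lower doses Fanca in lung measured -1.88, -1.90, -2.05, -1.98 and -2.11 in the D1 mice and -1.90, -1.90, -1.89 and -1.68 in the D2 mice. One D1 mouse overlapped with D0 and no D2 mouse did. At D2 the groups of 3 of 32 members (Fanca, Mre11a and Fancb) and of 2.65% of all probes did not overlap. The log2 fold changes were 0.21 at D1 (adjusted p = 0.720) and 0.35 at D2 (adjusted p = 0.154), neither of them past the threshold. At D3 the difference within the 4 slides that held both groups ran from 0.25 to 0.43 and within the 3 scan days from 0.25 to 0.43, and a fit that blocked on slide gave 0.33 (adjusted p = 0.0231). Without 1 mouse the adjusted p ran from 0.0123 to 0.108, and it was over 0.05 in 6 of the 10 fits, those without D0 mouse 1 (0.0784), 4 (0.0524) or 5 (0.0607) or D3 mouse 16 (0.108), 18 (0.0550) or 19 (0.0816). Over the other settings it ran from 0.0170 to 0.736, the highest under median centring, where the difference was 0.73. Heart muscle RNA varied between the lung samples, with 6 of 6 heart genes higher at D3 and 0 called, and a mean signal relative to D0 from -0.86 to 0.76 in D0 and from -1.03 to 2.21 in D3 lungs. With that signal as a covariate Fanca was at 0.39 (adjusted p = 0.0374) and 0 members were called.

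**Figure D2:**
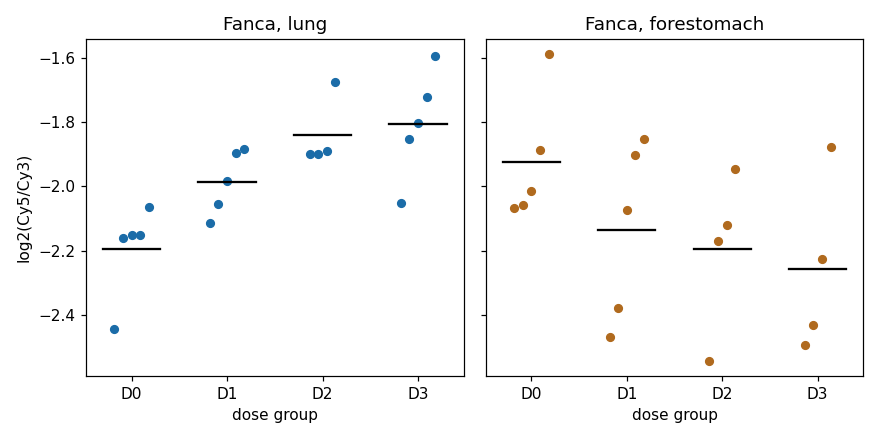
Log2(Cy5/Cy3) of Fanca in each mouse by dose group in lung (left) and forestomach (right). Points are mice and bars group means. From D0 to D3 the means were -2.19, -1.99, -1.84 and -1.80 in lung and -1.92, -2.13, -2.19 and -2.26 in forestomach.

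The other Fanconi members in lung changed by less. Fancg, a core complex subunit, measured -0.73, -0.33, -0.50, -0.24 and -0.49 at D0 and -0.07, -0.08, -0.20, -0.17 and -0.44 at D3, so that 5 of 5 D3 mice were above the D0 mean but the groups overlapped. Its signal cleared background on 0 of 5 D0 arrays and 2 of 5 D3 arrays, so its D0 level is only a bound and no fold is given (adjusted p = 0.329). Fancb, another core subunit encoded on the X chromosome, was the lowest member, at -0.16, -0.32 and -0.23 at D1, D2 and D3, and did not pass the threshold at any dose (smallest adjusted p = 0.329, at D2). Fancf and Fancl, the latter the catalytic ubiquitin ligase, were at 0.18 and 0.17 at D3, and Fancc and the fork translocase Fancm at 0.03 and 0.01. Fancd2, the substrate that the core complex marks, was not well above background on any array of either tissue, which was otherwise true only of Brca1.

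Of the homologous recombination genes, 7 of 10 had a positive estimate in the D3 lung (median 0.08). Brca2, which helps resected DNA to invade its template, measured -2.62, -2.89, -2.23, -2.27 and -3.00 at D0 and -2.25, -2.42, -2.26, -2.03 and -2.40 at D3. All 5 D3 mice were above the D0 mean, although the D0 mice spread widely (SD 0.35 against 0.16 at D3) and the groups overlapped. The log2 fold change was 0.33 ± 0.14 (SE, adjusted p = 0.354). With the ratio that Feature Extraction computes after background subtraction it was 0.89 and was called (adjusted p = 0.0119).

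Mre11a, the nuclease of the complex that senses broken ends, measured -1.88, -1.90, -1.83, -1.90 and -2.14 in lung at D0 and -1.54, -1.78, -1.88, -1.70 and -1.72 at D3. It was above the D0 mean in 5 of 5 mice at D1 and D3 and in 4 of 4 at D2, and only at D2 did the groups not overlap. The log2 fold changes were 0.16, 0.26 and 0.20, with adjusted p of 0.770, 0.320 and 0.295. Rad50 and Nbn, the partners of Mre11a in that complex, were at 0.09 and -0.16 at D3. Xrcc3, a strand exchange factor, was at 0.23 (adjusted p = 0.449) and was well above background on 1 of 5 D0 arrays and 5 of 5 D3 arrays. With the Feature Extraction ratio it was called (1.31, adjusted p = 0.0372). Rad54l, a DNA translocase of strand exchange, was at 0.01, and was called at D2 with the Feature Extraction ratio alone (0.79, adjusted p = 0.0480). The remaining recombination genes, Brca1, Palb2, Rad52 and Xrcc2, lay between -0.10 and 0.08. Brca1 was well above background on 0 of 19 lung arrays and Palb2 on 3 of 19, which limits both values.

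The RecQ helicase Blm, which dissolves crossed DNA strands, was at 0.06 in lung at D3, with D0 mice from -2.33 to -1.64 and D3 mice from -2.41 to -1.74. Its relative Wrn was at -0.01. Among the end joining genes, Xrcc6, the Ku subunit that caps broken ends, measured -2.16, -2.34, -2.27, -2.23 and -2.38 at D0 and -2.01, -1.98, -2.26, -2.15 and -2.21 at D3. All 5 D3 mice were above the D0 mean, and the groups overlapped. Its log2 fold change was 0.16 (adjusted p = 0.551), and the other end joining genes, Xrcc5, Xrcc4, Lig4 and Prkdc, lay between -0.05 and 0.13.

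The mismatch repair genes Pms2, Msh6 and Msh3 were at 0.08, 0.08 and -0.09 in lung at D3. Pms2, the nuclease partner in mismatch repair, ranged from -1.18 to -0.92 in D0 mice and from -1.10 to -0.89 in D3 mice, so the groups overlapped (adjusted p = 0.717). The checkpoint kinase Atm, which responds to broken ends, measured -0.86, -1.04, -0.85, -0.74 and -1.06 at D0 and -0.68, -0.73, -0.75, -0.73 and -0.60 at D3. The D3 mice lay close together (SD 0.06) and all above the D0 mean, with 1 of them below the highest D0 mouse. Atm was at 0.21 (adjusted p = 0.424), and its dimmer probe at 0.01. Chek1 and Atr were at 0.11 and 0.02. Chek1 was well above background on 1 of 5 D0 and 2 of 5 D3 arrays, which limits its value. Chek2, whose D0 arrays were all not well above background, ranged from -1.59 to -0.78 at D0 and from -1.42 to -0.77 at D3. In all, 6 members had an unadjusted p of at most 0.05 in lung at D3 (Fanca, Mre11a, Fancg, Brca2 and Atm higher, Fancb lower), where 11.3% of all probes did.

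To place these values beside those of dividing cells, 16 genes of proliferation and 38 other genes of the same repair pathways were measured on the same arrays. The proliferation genes rose in lung, with 6, 8 and 9 of 16 called at D1, D2 and D3, all higher, and a median of 0.60 at D3. Birc5, which guards the spindle, Rrm2, which makes deoxynucleotides, and Mki67, a marker of cycling cells, had log2 fold changes of 1.55, 1.41 and 1.23 at D3 (adjusted p = 1.71e-06, 7.19e-06 and 4.45e-05). Aurkb and Tyms did not follow, at -0.22 and -0.12. The 9 members known to be made mostly in the S and G2 phases of the cell cycle, Brca1, Brca2, Rad54l, Blm, Fanca, Fancb, Fancd2, Chek1 and Msh6, had a median of 0.06 at D3, and none was called. Brca1 and Fancd2 were well above background on 0 of 19 lung arrays and Chek1 on 5 of 19, which limits this median.

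Per mouse, the mean log2 ratio of the proliferation genes relative to D0 was between 0.35 and 0.88 in the 14 treated lungs and between -0.14 and 0.18 in the D0 lungs, without overlap. The same score of the 9 S-phase members ran from -0.12 to 0.29 in treated lungs and from -0.15 to 0.16 at D0, so that it overlapped widely. That score includes the dim members Brca1, Fancd2 and Chek1. After the mean of each dose group was removed, the scores correlated across the 19 lungs with a Pearson r of 0.59 and a Spearman rho of 0.56, and r was 0.46 without the 2 mice farthest from the median. Across the 12 forestomach mice whose arrays all carried a high signal of glandular stomach, r was 0.72 and rho 0.56, and r was 0.67 without the 2 farthest mice. These 2 relations are given as descriptions with no p, since the members were chosen with earlier results known and both scores come from the same arrays.

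**Figure D3:**
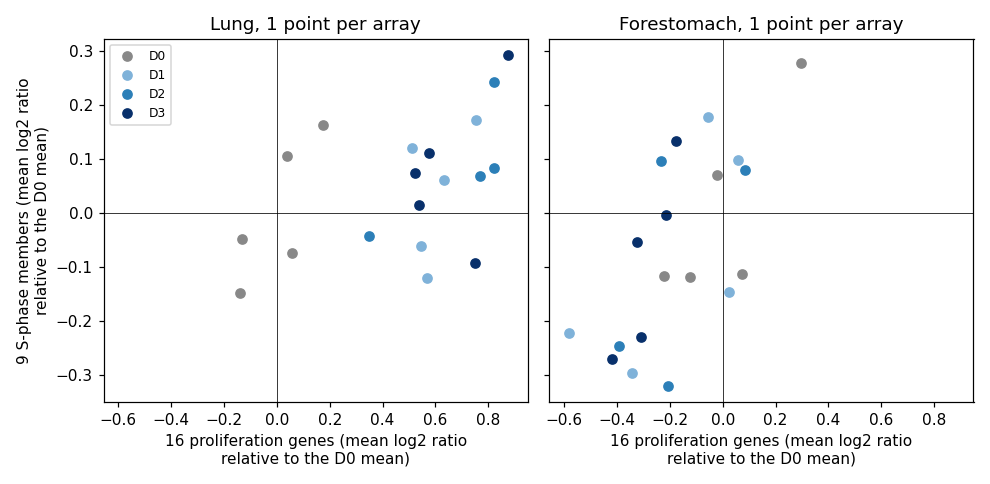
Mean log2 ratio of the 9 S-phase members against that of the 16 proliferation genes, each relative to the D0 mean of its tissue, with 1 point per array and colours for the dose. In lung the treated arrays lie to the right of the D0 arrays along the proliferation axis (0.35 to 0.88 against -0.14 to 0.18) and overlap with them along the S-phase axis.

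Of the 38 other pathway genes, 25 had a positive estimate in the D3 lung (median 0.08), and 1 was called. Bard1, the partner of Brca1, was at 0.55 (adjusted p = 0.00869), a fold of 1.46 and so below the fold threshold, with D0 mice from -2.71 to -2.13 and D3 mice from -2.06 to -1.88.

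In forestomach at D3, 13 of the 32 members were higher and 19 lower, with a median log2 fold change of -0.03. The 3 members with the largest changes were Rad54l (-0.33), Fanca (-0.33) and Chek2 (-0.24), with an adjusted p of 1.00 for each. The signal was well above background on 2 of 5 D0 and 3 of 5 D3 arrays for Rad54l and on 2 of 5 D0 and 1 of 5 D3 arrays for Chek2, which limits both values. Under median centring these 3 were at 0.30, 0.37 and 0.14, where probes well above background had a median of 0.73, so that their sign depends on the scaling while they stay below that median. The largest increase was 0.22, in Msh3, the mismatch sensor of longer loops, which differed between its probes (0.22, -0.20 and 0.00).

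Fanca in forestomach measured -2.01, -2.06, -1.89, -1.59 and -2.07 at D0. At D1 it measured -2.38, -2.47, -2.07, -1.85 and -1.90, and at D2 -2.54, -2.17, -1.95 and -2.12. The D3 mice were at -2.49, -2.43, -2.23 and -1.88. The D3 mice overlapped with the D0 mice through mouse 19, and 3 of 4 were below the D0 mean. Rad54l measured -2.04, -1.96, -1.29, -0.74 and -1.69 at D0 and -2.27, -2.10, -1.73 and -1.42 at D3, and Chek2 -0.76, -0.86, -0.65, -0.41 and -0.42 at D0 and -1.16, -1.10, -0.77 and -0.38 at D3. In both genes the groups overlapped.

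The spread between mice was larger in forestomach, for all probes (median SD 0.174 against 0.153 in lung) as for the members. The pooled SD within dose groups had a median of 0.19 over the 32 members, with a range from 0.11 to 0.50, against a median of 0.16 and a range from 0.09 to 0.32 in lung. On 6 forestomach arrays the signal of 9 genes of glandular stomach, the neighbouring region, lay between -3.38 and -2.80 relative to the D0 mean, and on the other 13 between 0.86 and 2.76. The low arrays were 2 of 5 at D0, 2 of 5 at D1, 1 of 4 at D2 and the first of the 2 labelled mouse 18 at D3. These 2 arrays differed in that signal, and read -2.21 and -2.25 for Fanca, -1.73 and -1.72 for Rad54l and -0.69 and -0.86 for Chek2. They lay further apart for Blm (-1.47 and -0.44), Mre11a (-0.88 and -1.41) and Xrcc3 (-1.29 and -0.80), so the averages of these genes are less certain. The median log2 ratio of Chek2 was -0.36 on the 6 low arrays and -0.86 on the 13 high ones, that of Rad54l -1.55 and -2.04, and that of Fanca -2.07 and -2.17. With either kind of array alone, or with this signal as a covariate, 0 members were called at any dose in forestomach.

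The change at D3 in lung was set against that in forestomach in 1 test of the difference. Of the 32 members, 26 had a higher log2 fold change in lung than in forestomach, against 50.2% of all probes. The median difference was 0.10, against 0.00 over all probes. Of the members 0 were called, against 0.172% of all probes. Fanca had the largest difference, 0.72 ± 0.18 (SE), with an adjusted p of 0.124. The Feature Extraction ratio gave a called difference of 0.83 (adjusted p = 0.0421). Blocks for scan day and for slide gave called differences of 0.74 each (adjusted p = 0.0267 and 0.0293), and so did leaving out forestomach D3 mouse 19. With mouse number as a replicate block the adjusted p was 0.0571, and under median centring the difference was 0.36 (adjusted p = 1.00). Within the same mouse, Fanca was lower in lung than in forestomach in 5 of 5 D0 mice, by 0.09 to 0.56, and higher in lung in 4 of 4 D3 mice, by 0.90, 0.58, 0.42 and 0.16 in mice 16, 17, 18 and 19. The value of mouse 18 was 0.40 with its first forestomach array and 0.44 with its second.

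For comparison, 7 of the 16 proliferation genes were called for the difference between the tissues, all higher in lung, with a median of 0.92, and all 16 had a negative estimate in forestomach at D3 (median -0.30, 0 called). The other pathway genes had 0 of 38 called.

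The untreated tissues were then compared to see where the members stood before exposure. The tissues matched their labels, as 6 of 6 markers of lung epithelium were called higher in lung and 5 of 6 markers of squamous epithelium higher in forestomach. Of the 32 members, 22 were lower in lung, with a median of -0.11. The adjusted p and the fold threshold were passed by 5, all lower in lung, in a contrast where 16.2% of all probes were called and 7.6% were called lower in lung. The adjusted p alone was passed by 14 members, 10 lower and 4 higher in lung, against 27.7% of all probes.

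Xrcc6 measured -2.16, -2.34, -2.27, -2.23 and -2.38 in the lungs of D0 mice 1 to 5 and -1.54, -1.23, -1.37, -1.63 and -1.37 in their forestomachs. The tissues did not overlap, and the log2 difference was -0.85 ± 0.09 (SE, adjusted p = 5.77e-09). The other Ku subunit, Xrcc5, differed by -0.02.

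Mre11a measured -1.88, -1.90, -1.83, -1.90 and -2.14 in lung and -1.45, -0.88, -1.28, -0.85 and -1.20 in forestomach, again without overlap, and differed by -0.80 ± 0.11 (adjusted p = 2.36e-07). Its partner Rad50 was higher in lung, by 0.42 (adjusted p = 0.00939), and Nbn differed by 0.08. Rad50 has a dimmer probe that read the other way, at -0.26 (adjusted p = 0.373).

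Xrcc3 measured -2.00, -1.93, -1.33, -1.63 and -1.74 in lung and -1.04, -1.04, -0.94, -0.93 and -1.20 in forestomach, with no overlap and a difference of -0.70 ± 0.10 (adjusted p = 1.79e-06). It was well above background on 1 of 5 lung and 2 of 5 forestomach arrays of D0 mice, which limits this value. Blm measured -2.29, -2.03, -1.64, -2.17 and -2.33 in lung and -0.64, -1.65, -1.17, -1.05 and -1.71 in forestomach, where the mice spread widely and overlapped with lung. It differed by -0.85 ± 0.21 (adjusted p = 0.00178).

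Rad54l measured -2.31, -2.46, -2.05, -1.87 and -2.42 in lung, with the forestomach values given above. The tissues overlapped, and the difference was -0.67 ± 0.23 (adjusted p = 0.0286). Its probe was well above background on 3 of 5 lung and 2 of 5 forestomach arrays of D0 mice, which limits this value too. Leaving out 1 mouse of a tissue at a time ended its call in 5 of 10 fits, those without the lung of mouse 1 (adjusted p = 0.0576), 2 (0.0736) or 5 (0.0675) or the forestomach of mouse 3 (0.0734) or 4 (0.137).

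**Figure D4:**
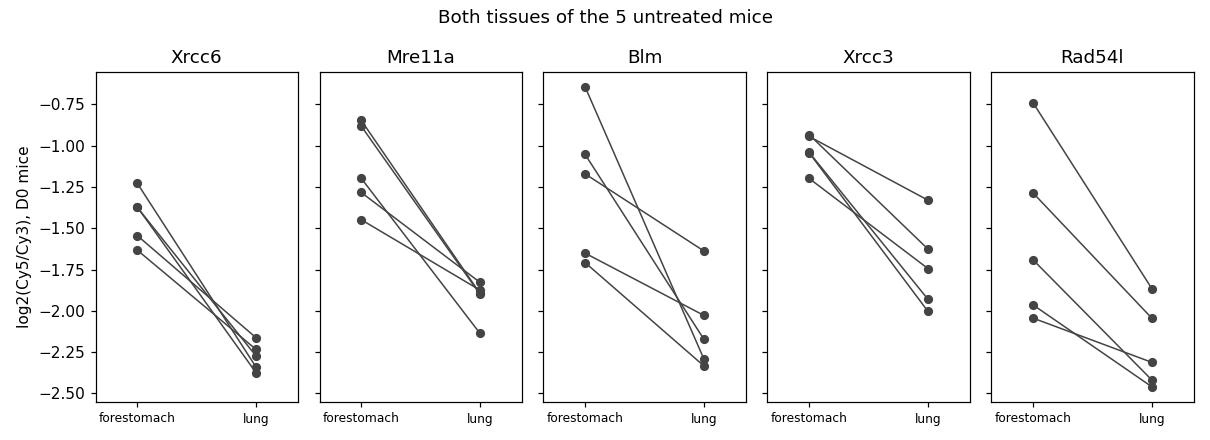
Log2(Cy5/Cy3) of the 5 members called between the untreated tissues, in forestomach and lung of each of the 5 D0 mice, with a line joining the tissues of a mouse. Every line falls from forestomach to lung, by 0.60 to 1.11 for Xrcc6 and by 0.27 to 1.13 for Rad54l.

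In each of the 5 D0 mice all 5 genes were lower in lung, and over the 18 mice of all doses with both tissues Xrcc6, Mre11a, Xrcc3 and Blm were lower in lung in 18 of 18 and Rad54l in 17 of 18. Within the 4 slides that held both tissues of D0 mice, the differences ran from -1.11 to -0.60 for Xrcc6 and from -1.05 to -0.55 for Mre11a. They ran from -0.89 to -0.39 for Xrcc3, from -1.14 to -0.38 for Blm and from -1.13 to -0.50 for Rad54l. These are the same 5 pairs of tissues, with 1 or 2 arrays of a tissue per slide. Their sign within slides and within the 3 scan days therefore follows from that of the mice and is no separate check on batch. Under median centring 0 members were called. There the 5 genes differed by -0.18 to -0.07, while probes well above background had a median of 0.47. With the 6 forestomach arrays of low glandular signal alone, 2 of them D0, Blm and Rad54l (-0.39, adjusted p = 0.144) were no longer called.

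The members higher in lung were Atr, the kinase of stalled forks (0.50, adjusted p = 1.70e-04), Rad50 (0.42), Msh3 (0.34) and Fancc (0.30), each higher in 5 of 5 lungs than the forestomach mean and below the fold threshold. The other probes of Msh3 were at 0.21 and -0.14 and that of Fancc at 0.37. Atm was lower in lung by its brightest probe (-0.34, adjusted p = 0.0214) and at -0.01 by its dimmer one. Of the S-phase members, 8 of 9 were lower in lung, with a median of -0.27. In the same contrast all 16 proliferation genes had lower estimates in lung, with a median of -1.05 and 13 called. Among the other pathway genes 8 of 38 were called, 7 of them lower in lung, with Bard1 at -0.75, and the nuclease scaffold Slx4 higher, at 0.65.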

How the data were processed

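The authors deposited scanner files with the median intensity of each spot, on a linear scale and not background corrected, and a log10 ratio, both made with Agilent Feature Extraction 10.7.3.1 per the file headers. They also deposited a table of log2 ratios, used as an alternative, whose columns matched the loess values of their arrays in scale and direction (slope 0.99 to 0.998, r 0.995 to 0.999) and had medians of -0.0415 to -0.0195. Probes were named through RefSeq accessions (GRCm38.p6). As in the study's methods, intensities were loess-normalized within each array without background correction. Each tissue was fitted over all dose groups with limma 3.58.1 in R 4.3.3, without dye swap, and contrasts between tissues in 1 fit over all arrays. MAANOVA was not used. A median of 46.6% of probes (30.1% to 63.8%) were well above background in Cy5, 21 members on every lung array and 12 on every forestomach array. Members and lists were chosen with earlier results of these data known. All 33 members are accounted for. Every mouse or the range is given for members called in any contrast, for the smallest p per role in lung at D3, and for the 3 largest changes at D3 in each tissue. Of the other pathway genes, those called or with the smallest p are named, except 1 that is not reported here. Mouse numbers are shared by the tissues of a mouse (correlation 0.13 over probes). Precision is limited by how many arrays each group has.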

Additional observations from a re-analysis of the deposited data

Results flagged for a closer look

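Over 88 combinations of a named member with a dose group and tissue, 4 had 1 mouse far from the rest of its group, and chance flags about 1 in 20 groups. Fanca was highest in D2 lung in mouse 15, at -1.68 with the next mouse at -1.89, and lowest in D0 lung in mouse 1, at -2.44 with the next at -2.16. Mre11a was lowest in D0 lung in mouse 5, at -2.14 with the next at -1.90. Xrcc3 was highest in D3 forestomach in mouse 19, at -0.87 with the next at -1.05. Their cause was not tested.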

How the results depend on the processing

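In the 3 lung dose comparisons 0 members were called under the other settings and without each mouse, except with the Feature Extraction ratio, which called 1 at D2 (Rad54l) and 2 at D3 (Brca2 and Xrcc3). In forestomach the count was 0 under every setting run. For the difference between the tissues at D3 it was 1 (Fanca) with that ratio and with a block for slide or for scan day, and 0 to 1 without 1 mouse. Between the untreated tissues the 5 calls became 0 under median centring and 10 with the Feature Extraction ratio, and 4 to 7 without 1 mouse. With mouse number as a replicate block, which pairs the tissues of a mouse, the counts were 5 between the untreated tissues and 0 for the difference at D3, and no call changed. The heart muscle covariate in lung and the split of forestomach arrays by glandular signal were chosen after seeing the data. Slide and scan day blocks used the first array of D3 mouse 18 alone. The causes were not tested. Brca1 and Fancd2 were not well above background on any array.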
